A study of Drosophila melanogaster with 6 samples.

Results

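The genes described here code for 10 intracellular components of the Imd pathway of Drosophila melanogaster, namely imd, Fadd, Dredd, ben, Diap2, Tak1, Tab2, key, Rel and pirk. They were chosen by gene name, with the antimicrobial effectors left out and with earlier results of these data known. Counts and medians of the 10 therefore describe them and do not test the pathway. All 10 were found among the 23882 features of the deposited count table. The RNA came from S2 cells, an established line derived from fly embryos, which take up double-stranded RNA (dsRNA) and silence the gene of matching sequence. The 3 groups were control cells given dsRNA against beta-gal, a bacterial gene, cells given Hlc dsRNA 2, and cells given Hlc dsRNA 3. Each group held 2 biological replicates sampled on day 3, and no other agent or allele is named in the labels. Hlc is a DEAD-box RNA helicase, and by its title the study asks how Hlc affects stress-responsive genes, their basal transcription and their chromatin. S2 is a single line, and the labels describe no immune challenge, so the levels are those of unchallenged cells as far as the labels say.

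The Imd pathway is the fly's defence against bacteria whose peptidoglycan holds diaminopimelic acid. Receptors pass the signal to the adaptor Imd, which recruits Fadd and the caspase Dredd. Dredd cleaves Imd, ubiquitin chains are built on it, and the kinase Tak1 with its partner Tab2 then activates the IKK complex, of which key codes for the regulatory subunit. The IKK complex and Dredd together release the active part of Relish, the NF-kappaB factor coded by Rel, which switches on antimicrobial peptide genes. Among the known targets of the pathway are Rel itself and pirk, which codes for an inhibitor that acts between the receptors and Imd.

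Library totals ran from 56195472 to 84283999 counts, and the 10 genes together took 0.282% and 0.291% of the counts in the controls and 0.103% to 0.110% in the Hlc dsRNA libraries. The targeted gene Hlc measured 317 and 316 CPM in the controls and 16.1 to 20.0 CPM in the 4 Hlc dsRNA libraries, where CPM is the count scaled to the library total after adjustment by TMM factors. Those factors were 0.751 and 0.778 in the controls and 1.13 to 1.16 with Hlc dsRNA, so small changes depend on the scaling, and directions that turn with it are named where they are given. Among blood cell markers, eater, crq, srp, Col4a1 and vkg were expressed (eater, the lowest of them, at 42.6 and 43.5 CPM in the controls), whereas the plasmatocyte markers Hml, NimC1 and Sr-CI stayed at or under 1.47 CPM in every library. Of 10 plasmatocyte markers 9 were tested, 4 were higher with Hlc dsRNA (eater, Pxn, Col4a1 and vkg) and 3 lower (crq at -0.77, srp at -0.58 and He at -3.15 on the log2 scale). In the same test, 32.2% of all tested features were higher and 32.6% lower. The sum of the 10 plasmatocyte markers was 5667 and 5985 CPM in the controls and 9320 to 10526 CPM with Hlc dsRNA. It is mostly the collagens Col4a1 and vkg (means of 2658 and 2246 CPM in the controls). The 6 lamellocyte markers summed to 1801 and 1802 CPM in the controls against 917 to 935 CPM with Hlc dsRNA. That sum is mostly cher and mys (means of 1059 and 623 CPM in the controls). The 5 markers tested were lower, and atilla, at 0 to 0.16 CPM, was not tested. The 4 crystal cell markers stayed under 0.63 CPM with PPO2 at 0 throughout. The labels describe S2 as stem cells of embryonic origin, and 4 germline markers summed to 1.42 to 3.17 CPM over the libraries. Of the 3 germline markers tested, osk was higher with Hlc dsRNA (log2 fold change 1.07, adjusted p 0.00237) and 2 were not called. The means of osk were 1.02 CPM in the controls and 2.15 CPM with Hlc dsRNA. Of 4 neuron markers, brp stood at 55.0 and 61.6 CPM in the controls and was not called, and elav was higher with Hlc dsRNA (log2 fold change 0.53, adjusted p 0.00266). The neuron markers nSyb and Syt1 stayed at or under 0.21 CPM in every library. nSyb was not called with both dsRNAs, and Syt1 was not tested. Fewer cells of a state and less RNA per cell cannot be told apart in these bulk libraries, and the part of such shifts in the results was not tested.

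With Hlc dsRNA, 8 of the 10 Imd signalling genes were lower than in the controls and 0 were higher. A gene was called changed at a Benjamini-Hochberg adjusted p under 0.05 in the quasi-likelihood test of edgeR, where 64.8% of all 11293 tested features were called, 32.2% as higher and 32.6% as lower. The 8 genes were imd, Dredd, Diap2, Tak1, Tab2, key, Rel and pirk, and the fall of imd is uncertain because it shares bases with a gene that fell far more (given with imd). Fadd and ben were not called. At an unadjusted p under 0.05 there was 1 gene higher, ben, while DESeq2 and limma-voom called 0 higher. The median log2 fold change of the 10 was -1.06, against 0.04 over all tested features. It was -0.48 with library size alone, against 0.62, and -0.77 after the reduction for shared bases given with imd. In 6 of the 10 the fall exceeded 2-fold, as it did in 13.2% of tested features. These were imd, Diap2, Tab2, key, Rel and pirk, and with dsRNA 3 alone 5 fell so far, against 13.3% of features. With library size alone key was at -0.83, and of the 10 only Rel and pirk stayed past 2-fold. In every one of the 10 the CPM ranges of the controls and of the Hlc dsRNA libraries did not overlap, which held for 71.5% of tested features.

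**Figure D1:**
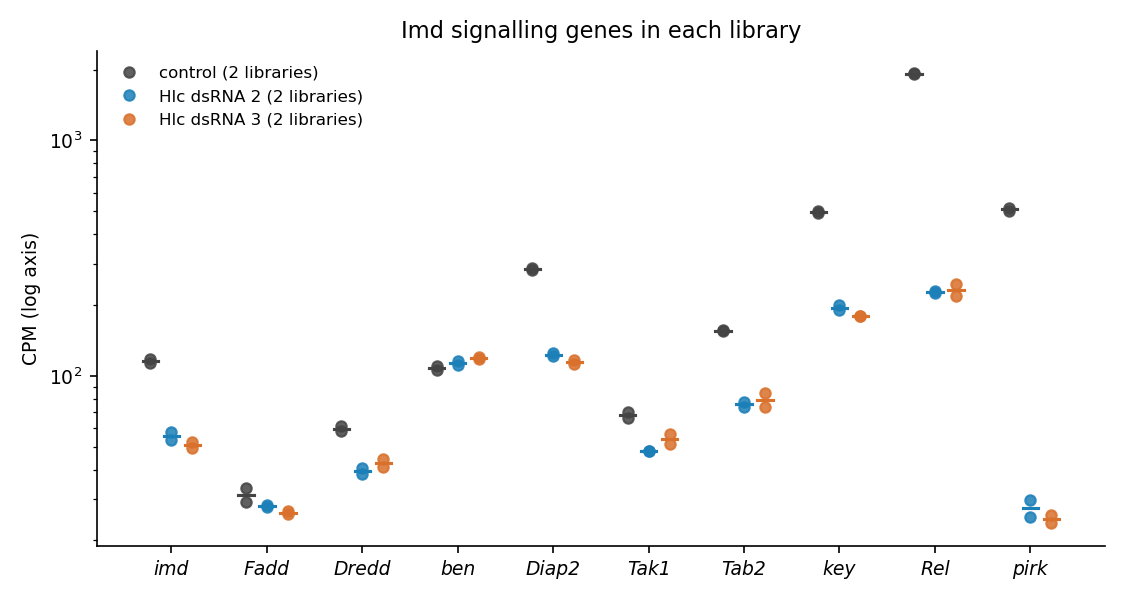
CPM of each of the 10 Imd signalling genes in each of the 6 libraries, on a log axis, with points for libraries and bars for group means. Rel and pirk show the widest gaps, from 1918 to 229 CPM and from 509 to 26.1 CPM, while ben and Fadd lie close to their control levels.

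The adaptor at the head of the intracellular pathway was lower by count. imd (FBgn0013983, chromosome 2R, 18409796 to 18413599, minus strand) stood at 113 and 118 CPM in the controls, 53.3 and 57.5 CPM with dsRNA 2, and 52.6 and 49.3 CPM with dsRNA 3. All 4 Hlc dsRNA libraries were below both controls, giving a log2 fold change of -1.12 (SE 0.05, adjusted p 2.22e-06). However, imd shares 40 exonic bases with GstE9, a glutathione transferase gene on the opposite strand, and these bases are 5.08% of the exonic length of GstE9. GstE9 went from 1173 and 1106 CPM in the controls to between 54.0 and 57.2 CPM with Hlc dsRNA (log2 fold change -4.36, SE 0.05, adjusted p 5.20e-09). It held 10.4 and 9.39 counts for each count of imd in the controls and 0.994 to 1.10 with Hlc dsRNA. How reads over shared bases were divided is not given in the sources used here.

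When each library's imd count was reduced by the matching portion of its GstE9 count, a calculation chosen after seeing the data, 52.7% and 47.7% of the imd counts were removed in the controls and 5.05% to 5.56% with Hlc dsRNA. What was left of imd came to 53.5 and 61.6 CPM for the controls, 50.6 and 54.6 CPM for dsRNA 2, and 49.7 and 46.6 CPM for dsRNA 3. The log2 fold change then was -0.20 (SE 0.08, adjusted p 0.0542), which is not called, and the ranges of the groups overlapped. Of the 10 genes, 7 were then lower with both dsRNAs. By dsRNA the remaining imd difference was -0.13 with dsRNA 2, not called, and -0.26 with dsRNA 3, called lower (adjusted p 0.0357). The calculation takes GstE9 reads as evenly spread over its exons, and those over the shared bases as counted for imd as well. Neither was tested, so the amount removed is not a measured one. Whether imd fell cannot be settled without knowing how reads over those 40 bases were counted. The same calculation removed at most 0.494% of the counts of Dredd, Diap2 or key in any library, and the other 6 genes share no exonic base with another gene.

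Fadd and Dredd code for the proteins that Imd recruits. Fadd (FBgn0038928, chromosome 3R, 22034455 to 22035617, plus strand), the adaptor that links Imd to Dredd, stood at 33.5 and 29.1 CPM in the controls, 28.4 and 27.8 CPM with dsRNA 2, and 26.7 and 25.9 CPM with dsRNA 3. The Hlc dsRNA libraries were the 4 lowest, but the controls differed by more from each other than the lower control did from the nearest Hlc dsRNA library, and the log2 difference of -0.21 (SE 0.08, 95% interval -0.40 to -0.01, adjusted p 0.0582) was not called. The call turned on the setting, since Fadd was lower by DESeq2 (adjusted p 0.0444) and without control replicate 2 (log2 fold change -0.31), and higher with library size alone (log2 fold change 0.38, adjusted p 0.00345).

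Dredd (FBgn0020381, chromosome X, 633622 to 635545, minus strand), the caspase that cleaves Imd and Relish, stood at 61.0 and 58.1 CPM in the controls, 40.7 and 38.4 CPM with dsRNA 2, and 41.0 and 44.5 CPM with dsRNA 3. The groups were well apart, with a log2 fold change of -0.53 (SE 0.06, adjusted p 2.22e-04). The fall of Dredd ended with library size alone, where the log2 fold change was 0.05 and was not called.

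Of the ubiquitin enzymes among the 10, Diap2 fell and ben was not called. Diap2 codes for the ubiquitin ligase that modifies cleaved Imd, and ben for Ubc13, the conjugating enzyme that builds lysine-63 chains. Diap2 (FBgn0015247, chromosome 2R, 15932170 to 15934825, minus strand) stood at 282 and 287 CPM in the controls, 121 and 125 CPM with dsRNA 2, and 113 and 116 CPM with dsRNA 3. It fell 2.40-fold with Hlc dsRNA (log2 fold change -1.26, SE 0.04, adjusted p 2.92e-07). ben (FBgn0000173, chromosome X, 13996345 to 13999805, plus strand) stood at 106 and 110 CPM in the controls, 116 and 111 CPM with dsRNA 2, and 118 and 121 CPM with dsRNA 3. The groups were nearly in contact, and the log2 difference for ben was 0.11 (SE 0.04, 95% interval 0.0049 to 0.21, adjusted p 0.0637), which was not called. ben was called higher under 3 settings, namely library size alone (0.69), upper-quartile factors (0.25) and the stricter filter on low counts (0.13). Outside the 10, Uev1A, the partner of Ubc13, and eff, another conjugating enzyme, were lower (-0.21 and -0.26, adjusted p 0.0103 and 0.00840).

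Tak1 and Tab2 code for the kinase that activates the IKK complex and for its ubiquitin-binding partner, and the partner fell further. Tak1 (FBgn0026323, chromosome X, 20515908 to 20524928, minus strand) stood at 66.1 and 70.2 CPM in the controls, 48.2 and 48.2 CPM with dsRNA 2, and 51.5 and 56.8 CPM with dsRNA 3. Its log2 fold change was -0.42 (SE 0.06, adjusted p 5.90e-04), and with library size alone it became 0.16 and was not called. Tab2 (FBgn0086358, chromosome 2R, 19292529 to 19304508, plus strand) stood at 156 and 155 CPM in the controls, 73.9 and 77.3 CPM with dsRNA 2, and 74.0 and 84.2 CPM with dsRNA 3. It was 2.01-fold lower with Hlc dsRNA (log2 fold change -1.01, SE 0.06, adjusted p 5.62e-06). The ratio of Tab2 to Tak1 per kb of exon, which does not depend on the scaling between libraries, was 2.19 and 2.34 in the controls and 1.42 to 1.59 with Hlc dsRNA. The ranges of that ratio did not overlap.

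In the IKK complex, which phosphorylates Relish, the regulatory subunit fell and the kinase subunit rose. key (FBgn0041205, chromosome 2R, 24785514 to 24787411, minus strand), which codes for the regulatory subunit IKK-gamma, stood at 492 and 504 CPM in the controls, 190 and 200 CPM with dsRNA 2, and 179 and 179 CPM with dsRNA 3. It fell 2.67-fold (log2 fold change -1.42, SE 0.04, adjusted p 2.05e-07), with the groups far apart. The kinase subunit IKKbeta, which is outside the 10, stood at 34.9 and 34.1 CPM in the controls, 44.9 and 41.0 CPM with dsRNA 2, and 41.3 and 46.0 CPM with dsRNA 3. IKKbeta rose (log2 fold change 0.33, SE 0.08, adjusted p 0.00659) and was called higher under each of the 15 alternatives run.

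Rel, the transcription factor at the end of the pathway, lost most of its transcript. Rel (FBgn0014018, chromosome 3R, 9044183 to 9047977, minus strand) stood at 1928 and 1907 CPM in the controls, 229 and 224 CPM with dsRNA 2, and 217 and 245 CPM with dsRNA 3. The lowest control was several times the highest Hlc dsRNA library, and the fall was 8.37-fold (log2 fold change -3.07, SE 0.06, adjusted p 4.27e-08). Of all tested features, 5.98% changed by more on the log2 scale. Rel lies on the same strand as Nmdmc, whose span it overlaps, but they share no exonic base.

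pirk, the inhibitor, fell furthest of the 10. pirk (FBgn0034647, chromosome 2R, 21660967 to 21662995, minus strand) stood at 516 and 503 CPM in the controls, 25.2 and 29.7 CPM with dsRNA 2, and 25.7 and 23.7 CPM with dsRNA 3. The fall was 19.6-fold (log2 fold change -4.29, SE 0.07, adjusted p 2.46e-08), and 3.30% of tested features changed by more. Of the Rel level 11.9% remained in the Hlc dsRNA libraries, and of the pirk level 5.11%. The count ratio of pirk to Rel per kb of exon was 0.499 and 0.507 in the controls and 0.183 to 0.251 with Hlc dsRNA, ranges that did not overlap.

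**Figure D2:**
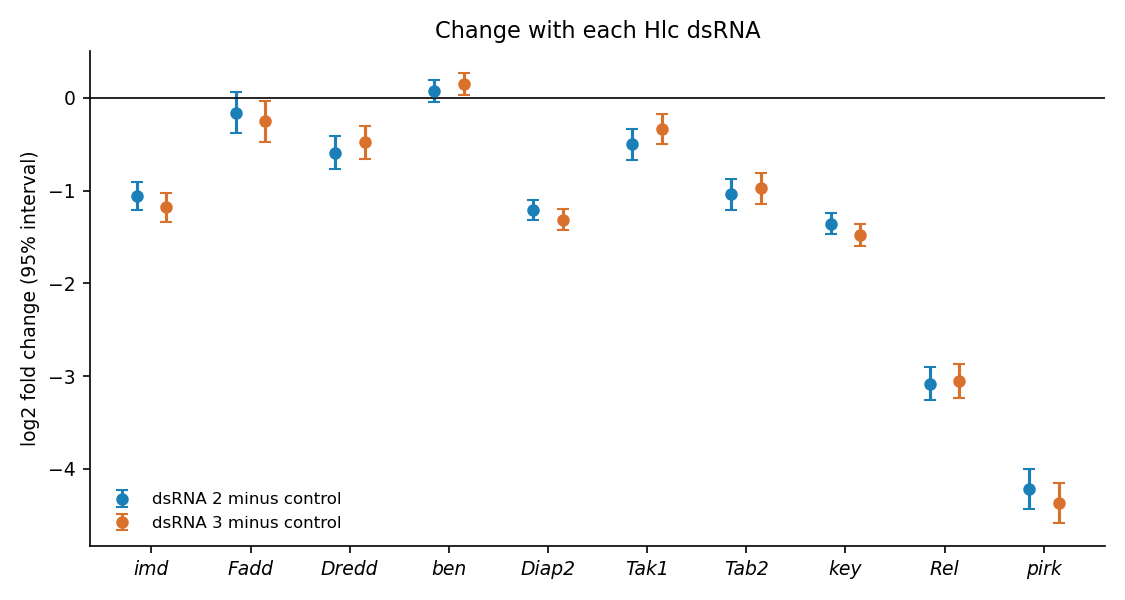
log2 fold change of each gene with dsRNA 2 and with dsRNA 3, each minus the same 2 controls, with 95% intervals from the edgeR fit. The points of both dsRNAs lie near each other for every gene, from -4.37 for pirk with dsRNA 3 to 0.15 for ben with dsRNA 3.

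The Hlc dsRNAs were compared with each other within the same fit. Against control, dsRNA 2 gave 8 lower and 0 higher among the 10 genes, where 60.7% of features were called (30.4% higher and 30.3% lower). dsRNA 3 gave 8 lower and 1 higher, where 61.6% of features were called (29.9% higher and 31.6% lower). For dsRNA 2 the count higher was also 0 at an unadjusted p under 0.05, by DESeq2 and by limma-voom. The gene higher with dsRNA 3 was ben (0.15, SE 0.05, adjusted p 0.0375). That call ended without control replicate 1, without either library of dsRNA 2, without either library of dsRNA 3, without a filter, with the replicate number as a block and in a fit of only the groups compared. These contrasts share their controls, so their likeness is not independent evidence. Between dsRNA 3 and dsRNA 2, edgeR called 0 of the 10, where it called 0.0797% of features (0.0177% higher and 0.062% lower, and 0.00886% past 2-fold in each direction). DESeq2 and limma-voom also called 0 of the 10, where they called 1221 and 327 of the 11293 features. DESeq2 gave no adjusted p for 3503 of those features, so its share among features with an adjusted p is larger. In edgeR at an unadjusted p under 0.05 there were 1 higher, Tak1, and 1 lower, key.

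The intervals show how large a difference between the dsRNAs the data allow. The log2 difference of dsRNA 3 minus dsRNA 2 was 0.17 for Tak1 (95% interval 0.0062 to 0.33, adjusted p 0.229) and -0.12 for key (95% interval -0.23 to -0.0066, adjusted p 0.221). For pirk it was -0.15 (95% interval -0.35 to 0.05, adjusted p 0.368) and for Rel 0.03 (95% interval -0.14 to 0.20, adjusted p 0.866). The 10 differences ran from -0.15 to 0.17, and 0 of the 10 intervals reached a 2-fold difference.

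**Figure D3:**
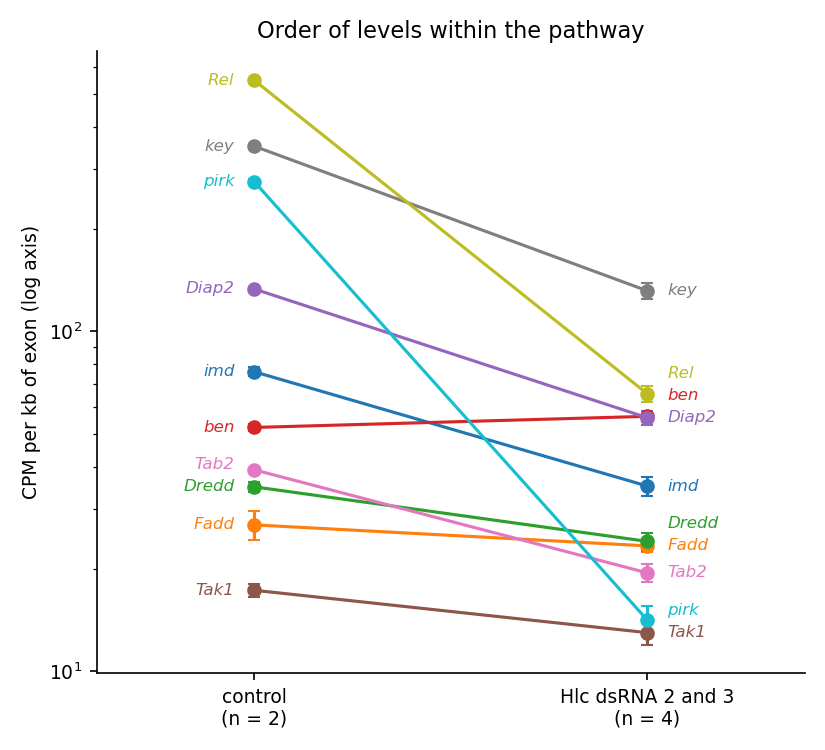
CPM per kb of exon of each gene in the controls (left, n = 2) and in the Hlc dsRNA libraries (right, n = 4), mean with SD, on a log axis. The line of pirk drops from the third place to the ninth, and the spread between the highest and lowest gene narrows from 31.7-fold to 10.1-fold.

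Levels were compared between genes per kb of exonic length. In the controls the order from high to low was Rel (548 ± 4.34 CPM per kb), key (351 ± 5.62), pirk (276 ± 5.09), Diap2 (133 ± 1.83), imd (76.0 ± 2.21), ben (52.1 ± 1.28), Tab2 (39.1 ± 0.20), Dredd (34.9 ± 1.21), Fadd (26.9 ± 2.68) and Tak1 (17.3 ± 0.74), each as SD with n = 2. The ranges of neighbours in this order did not overlap. With its counts reduced for the bases shared with GstE9, imd stood at 37.9 ± 3.79 CPM per kb in the controls, in place 7, with a range that overlapped those of Tab2 and Dredd. With Hlc dsRNA the order became key (132 ± 6.99 CPM per kb), Rel (65.4 ± 3.43), ben (56.2 ± 2.04), Diap2 (55.7 ± 2.50), imd (35.0 ± 2.22), Dredd (24.1 ± 1.47), Fadd (23.4 ± 0.95), Tab2 (19.5 ± 1.21), pirk (14.1 ± 1.38) and Tak1 (13.0 ± 1.03), each as SD with n = 4. Here the ranges overlapped between ben and Diap2, between Dredd and Fadd, and between pirk and Tak1. The highest gene stood 31.7-fold above the lowest in the controls (Rel over Tak1) and 10.1-fold with Hlc dsRNA (key over Tak1).

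Counted within each library, Rel made up 51.0% and 51.4% of the counts of the 10 genes in the controls and 23.9% to 26.0% with Hlc dsRNA. pirk made up 13.4% and 13.7% against 2.50% to 3.16%, and ben made up 2.83% and 2.94% against 11.8% to 13.2%. These shares do not depend on scaling between libraries, but they sum to a fixed total, so the share of ben grows when the counts of Rel and pirk shrink, and ben itself was not called. The order per kb depends on the length used: with coding length in place of exonic length, pirk (862 CPM per kb) stood above Rel (658) in the controls, and ben (257) above key (160) with Hlc dsRNA.

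The 10 genes lie on chromosomes 2R (5 genes), 3R (2) and X (3), each is protein-coding, and Fadd has a single exon block. Both genes with the deepest falls, Rel and pirk, have 2 exon blocks, and the remaining 7 have 3 to 9. By root mean square difference of centred log2 CPM over the 6 libraries, the genes most like Rel among 6289 with a symbol were rdog (0.05), Pmp70 (0.06) and LpR2 (0.07). Those most like pirk were GstE9 (0.08), which is the gene that overlaps imd, RabX1 (0.09) and tRNA:Ala-AGC-2-6 (0.13), the last at a mean of 0.601 CPM in the controls and 0 with Hlc dsRNA. At so few counts, the likeness of the tRNA gene rests on the prior count of 2 used for log2 CPM, and its fitted log2 fold change was -8.39 against -4.29 for pirk.

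**Figure D4:**
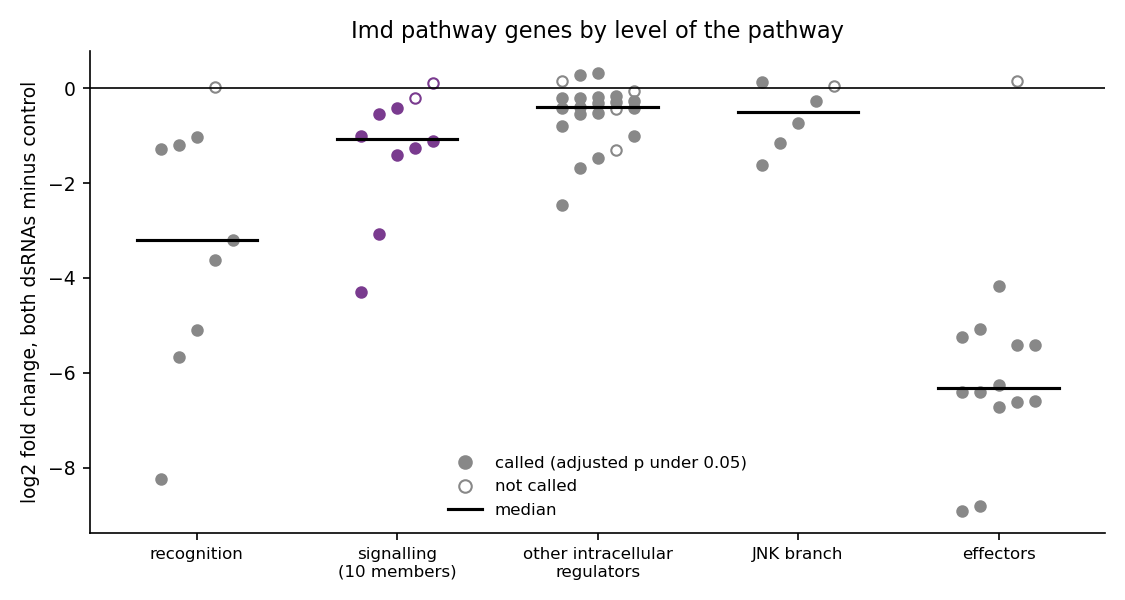
log2 fold change with both Hlc dsRNAs for the tested genes of 5 lists along the Imd pathway, filled where called and open where not, with the median of each list as a bar. The medians were -3.20 for recognition, -1.06 for the 10 signalling genes, -0.38 for other intracellular regulators, -0.50 for the JNK branch and -6.32 for effectors.

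The genes around the 10 were read from lists of the pathway, also chosen with earlier results of these data known. Counts and medians of the lists are therefore descriptions and not tests. Beside the counts of each list, 32.2% of all tested features were called higher with both dsRNAs and 32.6% lower. Of 10 recognition genes 9 were tested, 8 were lower and 0 higher (also 0 higher at an unadjusted p under 0.05, by DESeq2 and by limma-voom), with a median of -3.20. The amidase PGRP-LB, which degrades peptidoglycan, went from 212 ± 2.61 to 6.21 ± 0.49 CPM (mean and SD, n = 2 controls and 4 Hlc dsRNA libraries, as for the companion genes that follow; log2 fold change -5.10, adjusted p 3.23e-09), and the amidase PGRP-SC2 from 152 ± 4.31 to 0.53 ± 0.23 CPM. PGRP-SD, a secreted recognition protein, was at -3.20 on the log2 scale and PGRP-LC, the main receptor of the pathway, at -1.27. PGRP-LE, an intracellular receptor, was low throughout (1.87 to 2.65 CPM over the 6 libraries) and was not called.

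Of 25 other intracellular regulators 24 were matched and 23 tested, of which 17 were lower, 2 higher and 4 not called, with a median of -0.38. Over all tested features 64.8% were called, 32.2% as higher and 32.6% as lower. Charon, which codes for an ankyrin-repeat regulator of Relish, went from 503 ± 10.4 to 90.9 ± 4.39 CPM (SD, n = 2 and 4; log2 fold change -2.47, adjusted p 5.10e-08). POSH, a ubiquitin ligase that acts on Tak1, was at -1.67 on the log2 scale, sick at -1.47 and slmb, which codes for an F-box protein, at -1.01. The pair that rose was IKKbeta and Bap55, a subunit of Brahma chromatin complexes (0.29). With library size alone this list turned to 12 higher and 5 lower, where 6331 of all 11293 tested features were higher and 1815 lower.

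The JNK branch leaves the pathway at Tak1. Of its 6 genes 4 were lower, 1 higher and 1 not called, with a median of -0.50. Since 64.8% of all tested features were called, the number of calls among 6 genes says little about the branch. The phosphatase gene puc, a target and inhibitor of JNK signalling, went from 222 ± 5.83 to 72.0 ± 6.30 CPM (SD, n = 2 and 4; log2 fold change -1.63, adjusted p 3.20e-07), Jra, the fly Jun, was at -1.16 and kay, the fly Fos, at -0.73. With library size alone the call of kay ended, at -0.15. The kinase gene Mkk4 was at -0.26, and at 0.32 with library size alone, where it was called higher. The gene that rose was hep, the kinase that activates JNK, at 0.13 (adjusted p 0.0414). Without either control, without either dsRNA 2 library or without dsRNA 3 replicate 2, 0 genes of the branch were called higher.

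Of 14 effector genes 13 were lower and 0 higher (also 0 higher at an unadjusted p under 0.05, by DESeq2 and by limma-voom), with a median of -6.32. Over all tested features 32.6% were lower and 32.2% higher. AttB was at -6.25, AttA at -6.41 and AttC at -8.81, although AttA and AttB are close copies whose reads may be shared, and edin was at -5.07. CecC was the effector not called with both dsRNAs (14.0 CPM in the controls and 15.8 CPM with Hlc dsRNA), and by dsRNA it was higher with dsRNA 2 (0.37, adjusted p 0.0350) and not called with dsRNA 3 (-0.06). The 14 effectors took 3.89% and 3.97% of all counts in the controls and 0.0825% to 0.105% with Hlc dsRNA. None of the signalling genes fell as far as the median effector.

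**Figure D5:**
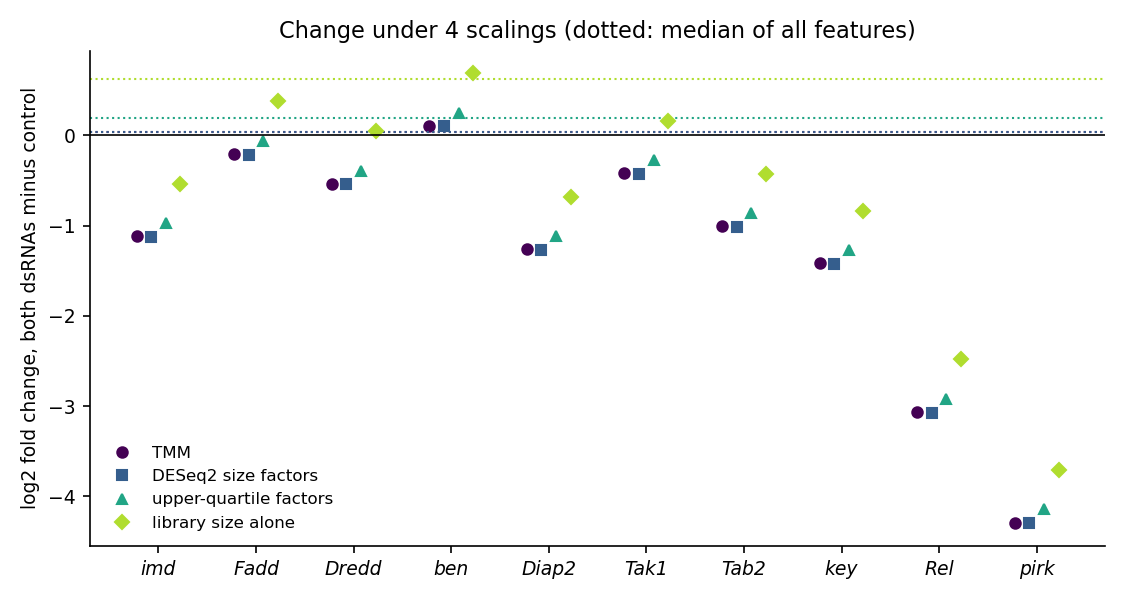
log2 fold change of each of the 10 genes with both Hlc dsRNAs under 4 scalings of the libraries, with the median of all tested features under each as a dotted line. The points shift together with the median, from 0.04 with TMM to 0.62 with library size alone, and Fadd, Dredd and Tak1 pass 0 only under the last.

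The scaling moved the median log2 fold change of all features from 0.04 under TMM to 0.19 under upper-quartile factors, and to 0.62 when only library size was used. Rel, pirk, key, Diap2 and Tab2 were called lower under each of the 15 alternatives run. imd was called lower under each of them except the reduction by GstE9 counts. Under TMM, 1.66% of features had a lower log2 fold change than pirk, 3.48% than Rel, 9.79% than key, 11.2% than Diap2, 15.1% than Tab2, 26.9% than Dredd, 31.0% than Tak1 and 52.9% than ben. A change of scaling shifts all features nearly alike, so these places are a description of the order and no check on it.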

How the data were processed

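Poly(A) RNA was sequenced in 6 libraries, 3 groups of 2. The authors deposited whole-number counts per feature, not normalized. Per the submitters' processing notes, the tools were Trimmomatic 0.36, TopHat2 2.1.0 and StringTie 2.1.7 and the build BDGP6. What each did, and the settings for counting, strand and multi-mapping, is not given in the sources used here. Columns were assigned by name, and 0 columns of values were left unused. Positions and lengths (1-based) come from the Ensembl annotation of BDGP6.54, release 115, which held 99.7% of the identifiers.

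Counts were filtered with filterByExpr, scaled by TMM, and modelled in edgeR 4.0.16 (R 4.3.3) by group over the 6 libraries, using its quasi-likelihood F test and leaving 3 residual degrees of freedom before moderation, with Benjamini-Hochberg adjustment over 11293 of 23882 features. SE is the size of a log2 fold change over the root of its F, and 95% intervals use it with the moderated degrees of freedom. Alternatives were other scalings, filters and tests (DESeq2 1.42.0, limma 3.58.1), a replicate block, each library left out, only the groups compared, and coding length; the reduction for shared bases (with its imd level per kb) was chosen after seeing the data. The fit was tested on simulated data in which few features changed, equally up and down. With no such shift between groups as the TMM factors show, that simulation does not test the scaling. Replicates of a group differed beyond counting error (27.4 to 37.9 for chi-square over its degrees of freedom).

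Named genes were the 10 members, Hlc, IKKbeta, up to 4 of each pathway list with the smallest adjusted p, and the 3 patterns nearest to Rel and pirk. Bap55, hep, CecC, Mtk, Def, PGRP-LE, Uev1A, eff, Nmdmc, the cell markers and GstE9 as the partner of imd were added after their values were seen. Members and lists were chosen with earlier results of these data known. Otulin was not matched to a feature.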

Additional observations from a re-analysis of the deposited data

Results flagged for a closer look

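Between the dsRNAs, edgeR called 0.0797% of all 11293 tested features. Of the pathway lists 1 gene was called, 1 of 14 effectors, namely edin, a small immune-induced peptide gene outside the 10. It stood at 177 and 185 CPM with dsRNA 2 and at 124 and 119 CPM with dsRNA 3, against 5040 and 4902 CPM in the controls. The log2 difference of dsRNA 3 minus dsRNA 2 was -0.58 (SE 0.06, edgeR adjusted p 0.0406), and both dsRNA 3 libraries were below both dsRNA 2 libraries. The direction was the same under each alternative run, from -0.61 to -0.54, but the adjusted p ran from 1.91e-21 by DESeq2 to 0.213 without dsRNA 2 replicate 2, and the call was lost under 10 of 16 alternatives. These were each of the other 3 scalings (adjusted p 0.0503 or above), the replicate block (0.127), the fit of only the groups compared (0.0506), and leaving out either control, either dsRNA 2 library or dsRNA 3 replicate 2 (0.0748 to 0.213). Groups of 2 libraries are too small to test for a library that stands apart.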

How the results depend on the processing

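Of 230 counts of calls recomputed under an alternative, 32 moved, which means by over 1.5 times or to or from 0. A count can go to or from 0 by the call of 1 gene, and the cause was not tested. Upper-quartile factors gave 1 of the 10 genes higher with both dsRNAs, 1 with dsRNA 2, 2 JNK branch genes higher and 1 effector higher. Under these factors 4245 of all 11293 tested features were higher with both dsRNAs and 4068 with dsRNA 2. Library size alone gave 2 of the 10 higher with both dsRNAs, 2 with dsRNA 2 and 3 with dsRNA 3, 1 recognition gene higher, 12 other regulators higher and 5 lower, 3 JNK branch genes higher and 2 lower, and 1 effector higher. With library size alone 6331 of all 11293 tested features were higher and 1815 lower with both dsRNAs. With dsRNA 2 there were 6038 higher and with dsRNA 3 there were 6080. The filter at 1 CPM in 4 libraries gave 1 of the 10 higher with both dsRNAs, where 3321 of 8400 tested features were higher. No filter, the fit of only the groups compared and the replicate block each gave 0 of the 10 higher with dsRNA 3. Over all features these settings gave 3290 of 16472, 3303 of 10893 and 3224 of 11293 higher. For the JNK branch, DESeq2 size factors, no filter, the DESeq2 test, limma-voom and the replicate block each gave 0 higher. Under these settings 3482 to 3605 features were higher with both dsRNAs, of 11293 tested or 16472 with no filter. Leaving out a library gave 0 to 1 higher among the 10 with dsRNA 3 and 0 to 1 higher in the JNK branch. Of the 10, 8 to 9 were then lower with both dsRNAs.

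With library size alone, Fadd turned to 0.38 with both dsRNAs, 0.42 with dsRNA 2 and 0.34 with dsRNA 3, Dredd to 0.0488 with both and 0.11 with dsRNA 3, Tak1 to 0.16, 0.0713 and 0.26, and Mkk4 to 0.32. Without dsRNA 3 replicate 2 the uncalled differences between dsRNAs turned to -0.0320 for Tab2 and -0.0606 for Rel, with ranges over the libraries left out of -0.0320 to 0.159 and -0.0606 to 0.119. Libraries of the same replicate number showed no shared shift over all features (correlations of deviations -0.04, 0.0034 and -0.03). Whether they were prepared together is not given in the labels. The replicate block ended the call of ben with dsRNA 3 (log2 fold change 0.15, adjusted p 0.0593). The lowest count of the 10 genes in a library was 1634; other depths and numbers of libraries were not tested.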
